A study of Mus musculus with 5 samples.

Results

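The genes described here are those whose symbols mark them as protein tyrosine phosphatases. They comprise the cytoplasmic Ptpn genes, the receptor-type Ptpr genes and the prenylated Ptp4a genes. Members were taken by symbol alone, as every row named Ptpn with a digit, Ptpr with a letter or Ptp4a with a digit, which gave 43 of the 24417 genes with a symbol. Of these 41 are phosphatase genes or relatives of them. The other 2 are Ptprcap, which encodes a small protein that binds CD45 and has no phosphatase domain, and the antisense RNA Ptprtos.

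The RNA came from T cells of mouse colon lamina propria, the connective tissue that underlies the gut epithelium. All mice carried the allele Foxp3DTR-GFP together with loxp-Thy1.1-STOP-loxp-GFP, a reporter-null allele in which Thy1.1 and a stop signal lie between loxP sites. Foxp3 encodes the lineage factor of regulatory T (Treg) cells. There were 2 Treg libraries, of Foxp3-DTR-GFP+ cells, and 3 reporter-null libraries, of Thy1.1+ cells, which use the allele labelled null for Foxp3. The labels give no treatment, age or sex, and do not say that libraries came from separate animals, so p-values rest on a spread among libraries that may be technical. The description of reporter-null replicate 1 names both 1 and 4, where each other description names 1 number.

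Protein tyrosine phosphatases remove phosphate groups that tyrosine kinases add, through a cysteine in the active site. In T cells CD45 removes the inhibitory phosphate from the kinase Lck, which the kinase Csk puts back, so CD45 and Csk set how readily the T cell receptor signals. PTPN22 and SHP-1 dampen signals from that receptor, PTPN2 and PTPN1 dampen JAK and STAT signals from cytokine receptors, and a small group around PTPN7 switches off MAP kinases.

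Total counts per library ran from 17670420 to 22395169, and the phosphatase symbols took 0.445% to 0.537% of them. Foxp3 stood at 764 and 770.0 CPM (counts brought to 1 library size by TMM factors) in the Treg libraries and at 75.7 to 81.3 CPM in the reporter-null libraries. Thy1, of which Thy1.1 is an allele, stood at 18.8 to 21.4 CPM and 269 to 300.5 CPM, so both genes followed the labels, which are defined by them. The 7 T cell markers in the table summed to 4770 to 5472 CPM in every library. Summed levels of 11 epithelial markers were 52.7 CPM in Treg replicate 2 and 41.1 and 44.2 CPM in replicates 1 and 3 of reporter-null cells, against 370.1 CPM in Treg replicate 1 and 1643 CPM in reporter-null replicate 2, and none of the 11 was called. These 2 libraries also had the most counts of the 8 B and plasma cell markers (1421 and 861 CPM, 386 to 437 CPM elsewhere), the 10 myeloid markers (47.6 and 86.8 CPM, 17.8 to 27.5 CPM elsewhere) and the 8 stromal markers (47.2 and 118 CPM, 11.9 to 22.0 CPM elsewhere). Single markers were called in 3 lists. In the T cell list Cd4 was higher (0.99, edgeR adjusted p = 0.00796) and Cd2 lower (-1.37, 0.00186). In the stromal list Pdgfrb was higher, at 0.163 and 0.277 CPM against 8.34, 10.3 and 6.19 CPM (0.00181), and in the B cell list Cd79b was lower (-1.47, 0.0046). In bulk RNA, fewer cells of a type and less RNA per cell cannot be told apart.

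Transcripts of the phosphatases Ptpn5, Ptp4a3, Ptprj and Ptprc (CD45) and of the CD45 partner Ptprcap were lower in reporter-null cells, and those of Ptprv, Ptprs and Ptpn9 were higher. The comparison asked how cells that use the Foxp3-deficient allele differ from Foxp3-sufficient Treg cells. Of the 43 genes 35 had enough counts to be tested. Among these 8 (22.9%) passed at an adjusted p under 0.05 in the edgeR quasi-likelihood test, against 8.79% of all 14164 genes tested. The 5 lower genes were 14.3% of the 35, against 4.72% of all genes, and the 3 higher genes were 8.57%, against 4.07%. At an unadjusted p under 0.05 there were 12 of the 35 (34.3%), against 22.6% of all genes. Groups did not overlap in 14 of the 35 (40%), which is near the 40.8% of all genes. The median log2 fold change, here always reporter-null minus Treg, was 0.05 over the 35 and 0.02 over all genes. Of the 35 values 21 were positive and 14 negative. Without reporter-null replicate 2, 11 of the tested members passed, where 15% of all genes did. Without both libraries of high epithelial markers, a fit with 1 Treg library, 10 passed, where 15.2% of all genes did, and the 8 named above were among them. With Treg replicate 1, Treg replicate 2 or reporter-null replicate 1 left out, 3, 2 and 4 members passed, where 2.27%, 2.7% and 3.32% of all genes did. Without reporter-null replicate 3 the numbers were 6 members and 8.09%.

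**Figure D1:**
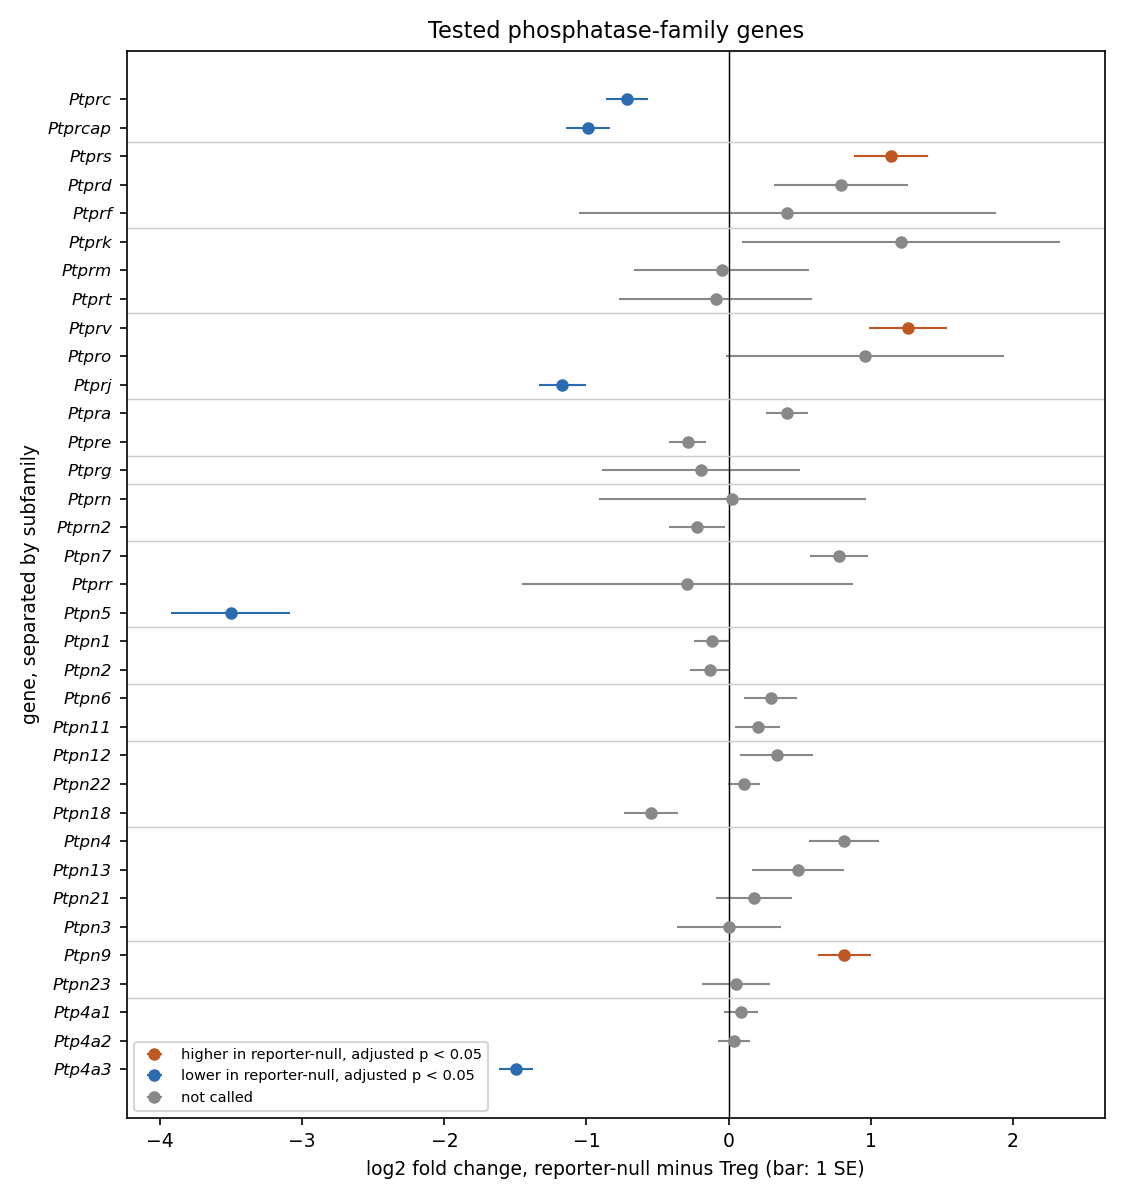
Log2 fold change (reporter-null minus Treg, horizontal axis, bars 1 SE) of the 35 tested genes, with grey lines between subfamilies and colours for the edgeR calls. Ptpn5 stands farthest to the left at -3.50, and genes of low count such as Ptprf and Ptprk have the widest bars.

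To show the regulatory DNA beside these differences, 4 windows are printed, for the called genes Ptprc, Ptprj and Ptpn5, which were lower, and Ptprs, which was higher. Each covers 250 bases before to 50 bases after the most upstream start in RefSeq (build GRCm38.p6), 5′ to 3′ on the strand of the gene. RefSeq windows were matched by symbol, with a filter on chromosome, and 35 of the 43 genes had a window. Of the 8 called genes 5 had a window, and Ptp4a3, Ptprcap and Ptprv had none. The filter was not used for the count over all RefSeq windows. Capitals mark the letters TGTTTNC, a core that forkhead proteins such as Foxp3 bind, TGTGGT, a core of RUNX proteins, and AGGAAG, a core of ETS proteins, on either strand. The genome build behind the counts is not given in the sources used here. The coordinates belong to the RefSeq table alone.
Ptprc, chr1:138175256-138175555, minus strand: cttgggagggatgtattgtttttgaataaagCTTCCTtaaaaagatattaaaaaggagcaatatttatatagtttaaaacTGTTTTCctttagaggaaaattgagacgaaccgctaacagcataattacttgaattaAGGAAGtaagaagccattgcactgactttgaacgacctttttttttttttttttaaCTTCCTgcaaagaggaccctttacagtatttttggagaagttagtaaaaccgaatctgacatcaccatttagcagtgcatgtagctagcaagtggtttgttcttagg
Ptprj, chr2:90580546-90580845, minus strand: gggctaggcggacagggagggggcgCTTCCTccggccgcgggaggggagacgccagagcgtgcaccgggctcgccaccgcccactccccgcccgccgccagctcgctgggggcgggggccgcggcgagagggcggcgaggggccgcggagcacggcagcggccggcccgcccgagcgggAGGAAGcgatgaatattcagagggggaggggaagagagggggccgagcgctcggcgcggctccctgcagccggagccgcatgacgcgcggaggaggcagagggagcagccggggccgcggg
Ptpn5, chr7:47133635-47133934, minus strand: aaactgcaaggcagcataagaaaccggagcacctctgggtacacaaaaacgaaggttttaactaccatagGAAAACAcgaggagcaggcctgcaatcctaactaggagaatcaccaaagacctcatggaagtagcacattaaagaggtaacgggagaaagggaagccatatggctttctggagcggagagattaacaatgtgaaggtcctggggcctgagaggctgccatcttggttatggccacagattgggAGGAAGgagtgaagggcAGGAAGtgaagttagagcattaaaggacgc
Ptprs, chr17:56476431-56476730, minus strand: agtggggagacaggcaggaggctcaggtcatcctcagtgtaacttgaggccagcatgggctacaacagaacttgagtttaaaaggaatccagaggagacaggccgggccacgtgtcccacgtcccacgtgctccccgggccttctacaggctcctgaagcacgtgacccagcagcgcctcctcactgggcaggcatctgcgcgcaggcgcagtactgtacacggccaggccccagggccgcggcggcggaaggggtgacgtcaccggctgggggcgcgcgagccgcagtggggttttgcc

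The Ptprc window held 1 forkhead match and 3 ETS matches, the Ptpn5 window 1 forkhead match and 2 ETS matches, and the Ptprj window 2 ETS matches. The Ptprs window held none of the 3 motifs. Over all 32851 RefSeq windows of this length, 20.5% held a forkhead match, 16.8% a RUNX match and 35.4% an ETS match. Of the 49 windows of the matched genes, 18.4% held a forkhead match, 12.2% a RUNX match and 44.9% an ETS match. Some windows of the same gene overlap, so 1 site can count in more than 1 window. The second RefSeq windows of Ptprc, Ptprj, Ptpn5 and Ptprs, which are not printed, held no forkhead match. Those of Ptprc, Ptprj and Ptprs held 1 ETS match each, and that of Ptpn5 held 1 RUNX match. The second Ptprc window overlaps the printed one, and its ETS match is the last one marked there. The window of Ptpn9, a called gene that was higher, is not printed either and held none of the 3 motifs. The letters describe these windows and are no measure of binding.

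CD45 was the most abundant transmembrane phosphatase per length of transcript in these cells, and its transcript was lower in every reporter-null library. Ptprc stood at 1680 and 1883 CPM in Treg replicates 1 and 2, against 1086, 953 and 1221 CPM in reporter-null cells, replicates 1 to 3. The groups did not overlap, and the lowest value was in reporter-null replicate 2, the library with the most epithelial marker counts. Without that library the log2 fold change of Ptprc was -0.64 (edgeR adjusted p = 0.0143). The means were 1782 ± 144 CPM (SD, n = 2) and 1087 ± 134 CPM (SD, n = 3), a log2 fold change of -0.71 (SE 0.149, edgeR adjusted p = 0.0328), or 1.64-fold. Counts per symbol do not separate the splice forms of CD45. The call was lost without Treg replicate 1 (adjusted p = 0.149), Treg replicate 2 (0.205) or reporter-null replicate 1 (0.136), and over 14 alternatives the adjusted p ran from 6.28e-06 to 0.205.

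Ptprcap, whose product associates with CD45 at the lymphocyte surface, stood at 724 and 646 CPM in Treg cells, against 374, 284 and 375 CPM in reporter-null cells. Again reporter-null replicate 2 was lowest and the groups did not overlap, and without it the log2 fold change was -0.88 (edgeR adjusted p = 0.00153). The log2 fold change was -0.99 (SE 0.155, edgeR adjusted p = 0.0113), with means of 685 ± 55.0 CPM (SD, n = 2) and 344 ± 52.2 CPM (SD, n = 3). In the GENCODE M21 models exons of Ptprcap overlap exons of Coro1b and Rps6kb2, so reads there cannot be assigned with certainty. Coro1b, which encodes an actin regulator, stood at 434 ± 12.3 and 389.7 ± 43.0 CPM and was not called (-0.15, adjusted p = 0.561). Rps6kb2, an S6 kinase gene, had a log2 fold change of 0.43 in the other direction and was not called (adjusted p = 0.0638). The Ptprcap call was lost without Treg replicate 1 (adjusted p = 0.123) or Treg replicate 2 (0.0747), and the 14 alternatives spanned 2.96e-08 to 0.123.

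**Figure D2:**
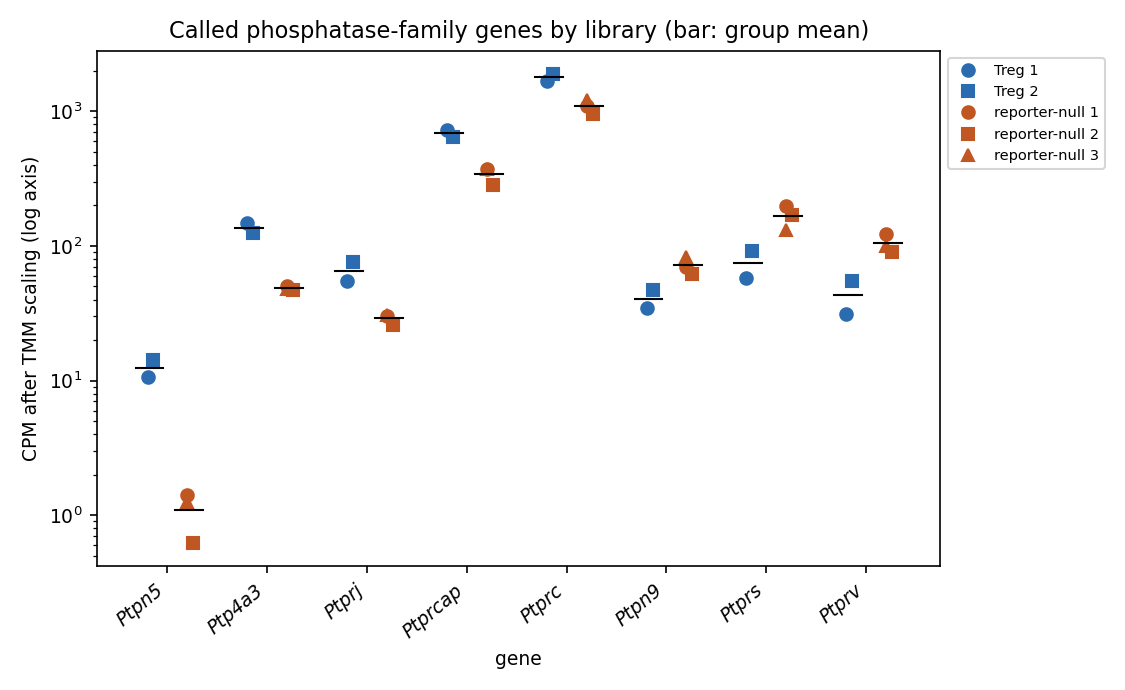
CPM after TMM scaling (vertical log axis) of the 8 called genes in each library, with a black bar at each group mean, blue for Treg and orange for reporter-null libraries. In all 8 genes the libraries of 1 group lie above those of the other, as with Ptpn5 at 10.6 and 14.2 CPM against 0.624 to 1.41 CPM.

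Ptpn5 had the largest difference of the family. It encodes STEP, a phosphatase best known from neurons, which binds MAP kinases through a kinase interaction motif and inactivates them. Its level was 10.6 and 14.2 CPM in the Treg libraries, from 196 and 308 counts, and 1.41, 0.624 and 1.25 CPM in reporter-null cells, from 26, 13 and 28 counts. The lowest Treg library thus lay well above the highest reporter-null library. Ptpn5 fell by 3.50 on the log2 scale (SE 0.420, edgeR adjusted p = 0.00428), or 11.3-fold. Without Treg replicate 2 the log2 fold change was -3.27 and the adjusted p 0.0569, and over 14 alternatives the latter ran from 6.75e-17 to 0.126. The other genes of this class were not called. Ptpn7, which encodes the haematopoietic phosphatase HePTP of ERK and p38, stood at 269 and 379.8 CPM in Treg cells, against 638, 456 and 572 CPM in reporter-null cells. The groups did not overlap, and the log2 fold change was 0.78 (SE 0.205), with an edgeR adjusted p of 0.0698. Ptpn7 passed without reporter-null replicate 2 (0.00485), without both libraries of high epithelial markers (0.0227) and with DESeq2 (0.0022), and the 14 alternatives spanned 0.0022 to 0.386. Ptprr, the third gene of the class, had 2 to 20 counts per library and was not called.

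Ptp4a3 encodes PRL-3, a prenylated phosphatase of the membrane that binds CNNM magnesium transport proteins. It stood at 147 and 125 CPM in Treg cells, against 50.2, 47.3 and 47.7 CPM in reporter-null cells. The reporter-null values lay close together, with an SD of 1.54 CPM around 48.4 CPM, and far from the Treg mean of 136 ± 15.7 CPM. Ptp4a3 fell by 1.49 on the log2 scale (SE 0.118, edgeR adjusted p = 0.000991), or 2.82-fold, the smallest p of the family. It passed with each library left out in turn, and its adjusted p ran from 2.07e-26 to 0.0646 over 14 alternatives. The related genes Ptp4a1 (PRL-1) and Ptp4a2 (PRL-2) were not called. Ptp4a1 stood at 101 and 104 CPM in Treg cells, against 97.2, 117 and 111 CPM in reporter-null cells, with a log2 fold change of 0.09 (SE 0.122, edgeR adjusted p = 0.746). Ptp4a2 stood at 469 and 490.2 CPM against 464, 517 and 499.8 CPM, with 0.04 (SE 0.112, edgeR adjusted p = 0.881). Groups overlapped in both.

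Ptprj encodes CD148, a receptor with fibronectin repeats that acts on Src family kinases and on the T cell receptor pathway. Its level was 54.9 and 75.6 CPM in Treg cells, against 30.3, 25.9 and 30.8 CPM in reporter-null cells. The groups did not overlap, and the Treg libraries differed from each other by more than the reporter-null libraries did. Ptprj fell by 1.17 on the log2 scale (SE 0.167, edgeR adjusted p = 0.008), from 65.3 ± 14.6 to 29.0 ± 2.69 CPM. The call was lost without Treg replicate 2 (adjusted p = 0.0733), and the 14 alternatives spanned 7.23e-09 to 0.135.

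The 3 higher genes each passed narrowly. Ptprs encodes a LAR type receptor whose ligands are sulphated glycan chains of proteoglycans. It stood at 58.2 and 91.9 CPM in Treg cells, against 198, 169 and 131 CPM in reporter-null cells, with no overlap. Ptprs rose by 1.15 on the log2 scale (SE 0.260, edgeR adjusted p = 0.049), from 75.0 ± 23.8 CPM (SD, n = 2) to 166 ± 33.9 CPM (SD, n = 3). The call was lost with RLE factors (0.0503), with no filter (0.0504) and when Treg replicate 1 (0.236), Treg replicate 2 (0.0676) or reporter-null replicate 1 (0.137) was left out, and the 14 alternatives spanned 0.000192 to 0.236.

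Ptprv, a receptor type gene known from bone and testis in mice, stood at 31.4 and 55.3 CPM in Treg cells, against 123, 89.8 and 100.5 CPM in reporter-null cells. No reporter-null library fell to the level of a Treg library. Ptprv rose by 1.26 on the log2 scale (SE 0.273, edgeR adjusted p = 0.0434), from 43.4 ± 16.9 CPM (SD, n = 2) to 104 ± 16.9 CPM (SD, n = 3). Its exons overlap the gene model Gm10535 on the other strand. It lies 0.11 kb from Ptpn7 in the GENCODE M21 models, which class it as a processed transcript, and both genes had higher values in reporter-null cells. The counts do not show which reads near that boundary belong to which gene. The Ptprv call was lost with Treg replicate 1 left out (0.146), with reporter-null replicate 1 (0.131) or 3 (0.114) left out, and with no filter (0.0511), and the 14 alternatives spanned 5.83e-05 to 0.256. Its log2 fold change ran from 0.92 to 1.74 over these.

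Ptpn9 encodes PTP-MEG2, which carries a lipid-binding Sec14 domain and acts on secretory vesicles. Its level was 34.5 and 46.8 CPM in Treg cells, against 69.7, 61.8 and 83.2 CPM in reporter-null cells, again with no overlap. Ptpn9 rose by 0.81 on the log2 scale (SE 0.188, edgeR adjusted p = 0.0443), from 40.7 ± 8.67 CPM (SD, n = 2) to 71.6 ± 10.8 CPM (SD, n = 3). Gm10658, a gene model on the other strand whose exons overlap those of Ptpn9, also rose (0.97, edgeR adjusted p = 0.0323), and without a stated strand setting reads of the pair cannot be told apart. The call was lost without either Treg replicate (0.277 and 0.0857 for 1 and 2) and without reporter-null replicate 1 (0.142) or 3 (0.0754), and the 14 alternatives spanned 0.00151 to 0.277.

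**Figure D3:**
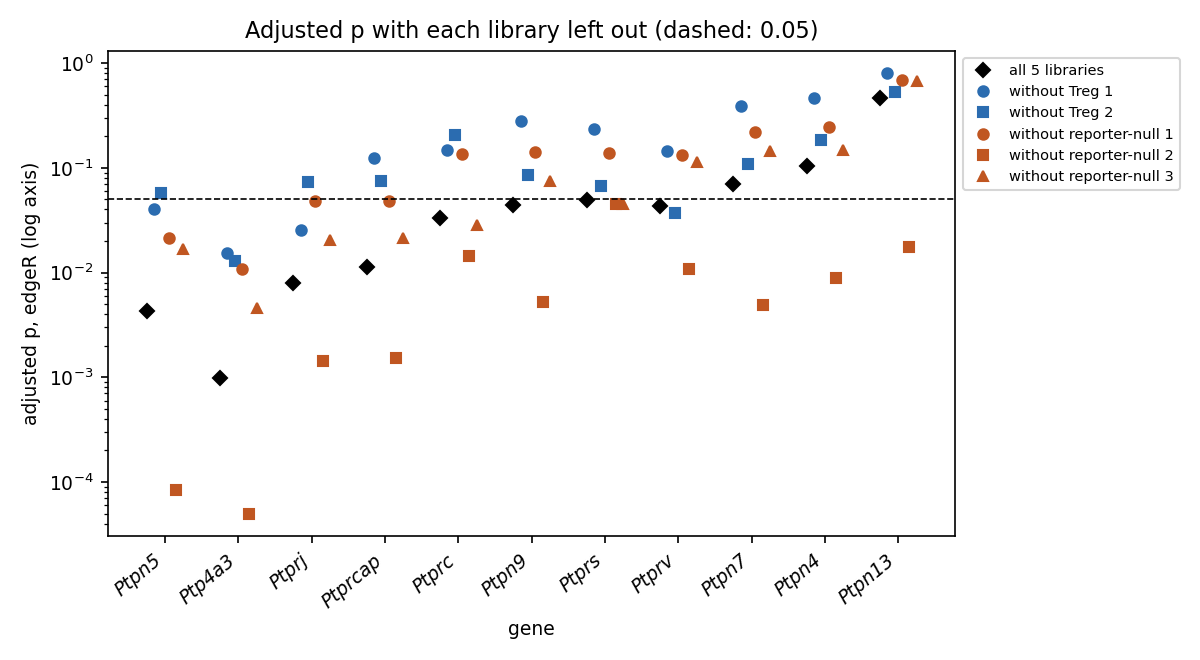
Adjusted p of the edgeR test (vertical log axis, dashed line at 0.05) for the 8 called genes and for Ptpn7, Ptpn4 and Ptpn13, with all 5 libraries and with each library left out. Ptp4a3 stays under the line in every fit shown, and Ptpn7, Ptpn4 and Ptpn13 go under it only without reporter-null replicate 2.

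The SHP phosphatases, which carry SH2 domains and dock on inhibitory receptors, were not called. Ptpn6, which encodes SHP-1, stood at 116 and 152 CPM in Treg cells, against 185, 133 and 176 CPM in reporter-null cells. The ranges overlapped, and the log2 fold change was 0.30 (SE 0.188, edgeR adjusted p = 0.423). Ptpn11, which encodes SHP-2, stood at 44.8 and 32.8 CPM against 43.0, 43.9 and 47.2 CPM, with 0.20 (SE 0.159, adjusted p = 0.527). In both genes the Treg replicates differed from each other by more than the group means did. Of 17 tested genes from a list of SHP docking receptors and adaptors, 3 were lower and none was higher, with a median log2 fold change of -0.41, where 4.72% of all genes were lower. At an unadjusted p under 0.05 there were 7, 5 of them lower, where 22.6% of all genes reached it. The called genes were Cd101 (-1.66, edgeR adjusted p = 0.00123), Tigit (-1.32, 0.00308) and Cd72 (-0.72, 0.0102), which encode inhibitory surface receptors, CD72 best known from B cells. The B cell marker Cd79b fell with them, at 20.4 and 19.2 CPM in Treg cells, against 7.42, 7.10 and 6.81 CPM in reporter-null cells (-1.47, edgeR adjusted p = 0.0046), and its part in the Cd72 value was not tested. The Cd72 call did not hold without Treg replicate 1 (0.0776) or 2 (0.0878) or reporter-null replicate 1 (0.0815), and the 14 alternatives spanned 2.46e-07 to 0.11.

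The PEST type phosphatases, cytoplasmic enzymes with proline-rich tails, were not called either. Ptpn22, which encodes the Csk-binding phosphatase LYP or PEP, was the most abundant of them per length of transcript. It stood at 412 and 393 CPM in Treg cells, against 405, 453 and 445 CPM in reporter-null cells, with overlapping ranges. Its log2 fold change was 0.11 (SE 0.112, edgeR adjusted p = 0.65). Ptpn18, which encodes a phosphatase that turns down HER2, stood at 103 and 73.7 CPM against 60.6, 50.9 and 70.1 CPM. The groups did not overlap, but the Treg libraries were far apart, and the log2 fold change of -0.55 (SE 0.193) had an edgeR adjusted p of 0.149. Ptpn12, which encodes PTP-PEST, stood at 9.23 and 10.8 CPM against 12.1, 9.98 and 15.9 CPM (0.34, SE 0.257, adjusted p = 0.514).

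Neither Ptpn2 nor Ptpn1, whose products act on JAK and STAT proteins, was called. Ptpn2, which encodes TC-PTP, stood at 128 and 133 CPM in Treg cells, against 114, 106 and 138 CPM in the other group (log2 fold change -0.13, SE 0.139, edgeR adjusted p = 0.668). Ptpn1, which encodes PTP1B, stood at 361 and 368 CPM against 335, 372 and 300.3 CPM (-0.12, SE 0.126, edgeR adjusted p = 0.663). In both genes a reporter-null library exceeded both Treg libraries. Among 9 JAK and STAT genes on which these enzymes act, 2 were lower and none was higher, with a median of -0.12, where 4.72% of all genes were lower. At an unadjusted p under 0.05 there were 4, 2 in each direction, where 22.6% of all genes reached it. The 2 with positive values were Jak2 (0.36, adjusted p = 0.163) and Tyk2 (0.34, 0.179), kinases of cytokine receptors, which were not called. Stat5a, which encodes a factor that acts downstream of interleukin 2, fell from 163 ± 3.68 CPM (SD, n = 2) to 111 ± 7.61 CPM (SD, n = 3) (-0.55, edgeR adjusted p = 0.0288). The Stat5a call was lost when Treg replicate 1 (0.167), Treg replicate 2 (0.171) or reporter-null replicate 1 (0.103) was left out, and the 14 alternatives spanned 4.68e-05 to 0.171.

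None of the 4 tested FERM domain phosphatases, which attach to the cortex below the membrane, was called. Ptpn4 stood at 24.1 and 33.2 CPM in Treg cells, against 47.3, 39.5 and 64.1 CPM in the other group (log2 fold change 0.81, SE 0.246, edgeR adjusted p = 0.105). It passed without reporter-null replicate 2 (0.00892), without both libraries of high epithelial markers (0.00568) and with DESeq2 (0.0216), and the 14 alternatives spanned 0.00568 to 0.467. Ptpn13, which encodes a large scaffold-like phosphatase with PDZ domains, stood at 120.3 and 157 CPM against 199, 126 and 259 CPM (0.49, SE 0.324, edgeR adjusted p = 0.459). Reporter-null replicate 2 was its lowest reporter-null library, and without it the adjusted p was 0.0174, and the 14 alternatives spanned 0.0174 to 0.817. Ptpn21 and Ptpn3 had log2 fold changes of 0.18 and 0.00.

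The short receptors Ptpra and Ptpre, which activate Src family kinases by removing their inhibitory phosphate, lay on opposite sides of no change. Ptpra stood at 148 and 172 CPM in Treg cells, against 208, 241 and 189 CPM in reporter-null cells (0.41, SE 0.145, edgeR adjusted p = 0.148). Ptpre stood at 51.2 and 44.9 CPM against 38.0, 43.0 and 37.1 CPM (-0.29, SE 0.128, edgeR adjusted p = 0.247). Neither gene had overlapping groups, and neither was called. Among the 15 genes of a list for the control of Src family kinases, 4 were lower and none was higher, with a median of -0.28, where 4.72% of all genes were lower. At an unadjusted p under 0.05 there were 8, 7 of them lower, where 22.6% of all genes reached it in either direction. Csk, the kinase that opposes CD45 at Lck, fell from 172 ± 19.1 CPM (SD, n = 2) to 96.5 ± 5.51 CPM (SD, n = 3), by 0.84 on the log2 scale (edgeR adjusted p = 0.00818). Sla2 (-0.67, adjusted p = 0.017) and Cbl (-0.61, 0.0268), which take part in turning over receptor complexes, and the adaptor Lax1 (-0.56, 0.0261) fell too. The Csk call was lost without Treg replicate 1 (0.0933) or reporter-null replicate 1 (0.0551), and the 14 alternatives spanned 4.15e-09 to 0.0933. Calls of Sla2, Cbl and Lax1 were lost without Treg replicate 1, Treg replicate 2 or reporter-null replicate 1, with a highest adjusted p of 0.158, 0.165 and 0.165 among these 3 fits. The Lax1 call was also lost without both libraries of high epithelial markers (0.0682).

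Several receptor phosphatases that epithelial cells are known to express differed more between libraries than between groups. Ptprf, which encodes LAR, stood at 5.32 and 2.13 CPM in Treg replicates 1 and 2, against 1.57, 12.8 and 0.489 CPM in reporter-null cells, replicates 1 to 3. Ptprk, a receptor with a MAM domain found at cell junctions, stood at 3.58 and 1.53 CPM and at 1.35, 13.8 and 2.63 CPM. In both genes Treg replicate 1 and reporter-null replicate 2 were the highest of their groups, as they were for the summed epithelial markers. Ptprh, another receptor of gut epithelium, had 22 counts in reporter-null replicate 2 and 0 to 7 in each other library. Ptprd was also highest in reporter-null replicate 2, at 8.78 CPM against 2.87 to 4.94 CPM elsewhere. Ptprh had too few counts to be tested, and Ptprf, Ptprk and Ptprd were not called. The log2 fold change of Ptprf was 0.41 (SE 1.466) and that of Ptprk 1.22 (SE 1.119), with edgeR adjusted p of 0.912 and 0.614. Without reporter-null replicate 2 they were -1.87 and -0.36, so the sign turned in both. Without both libraries of high epithelial markers they were -1.06 and 0.39, so the sign turned in Ptprf alone. The part of epithelial RNA in these values was not tested.

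**Figure D4:**
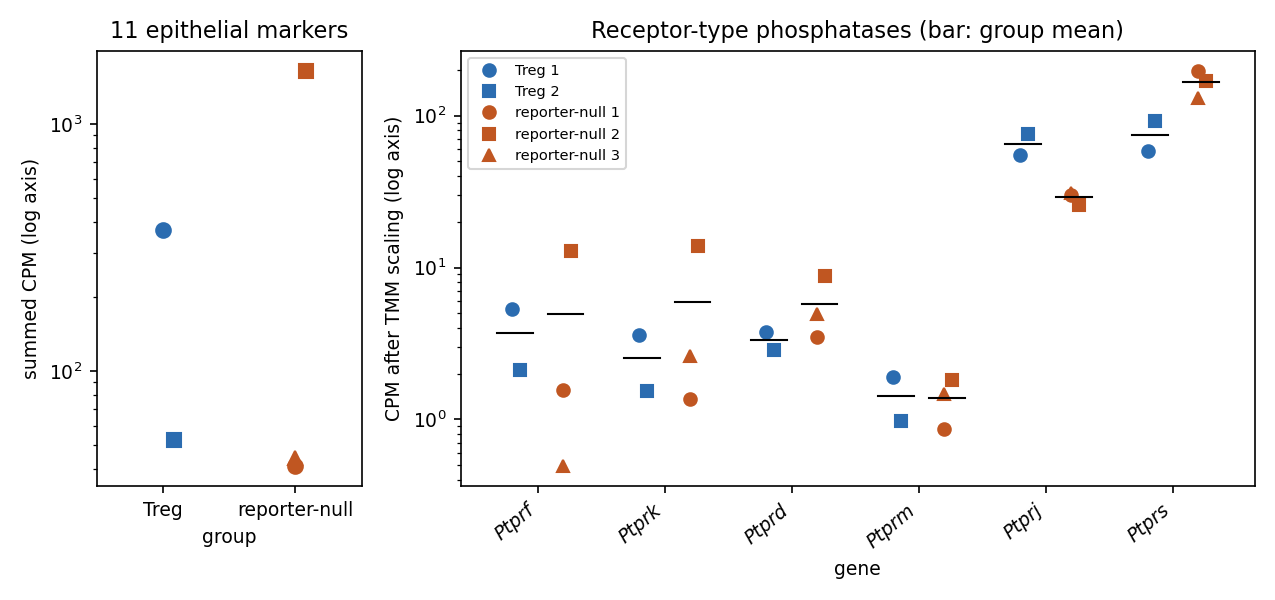
Left, summed CPM of 11 epithelial markers per library (log axis). Right, CPM (log axis) of 6 receptor-type phosphatases per library, with black bars at group means. Ptprf and Ptprk are highest in reporter-null replicate 2, at 12.8 and 13.8 CPM, the library with 1643 CPM of the markers, while Ptprj and Ptprs separate by group.

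The remaining tested genes were at low levels. Ptprn2, a receptor of dense-core vesicles, stood at 11.1 ± 0.255 CPM (SD, n = 2) and 9.54 ± 0.360 CPM (SD, n = 3), with no overlap and no call (-0.22, SE 0.198, edgeR adjusted p = 0.588). Ptpn23, which encodes a phosphatase-like protein of endosome sorting, stood at 9.43 ± 2.09 and 9.78 ± 0.895 CPM. A mean under 2 CPM in both groups was found for 6 tested genes, Ptprg, Ptprm, Ptprn, Ptpro, Ptprr and Ptprt. The 8 untested genes Ptpn14, Ptpn20, Ptprb, Ptprh, Ptprq, Ptprtos, Ptpru and Ptprz1 had at most 22 counts in a library. Ptpn20 had 0 counts in both Treg libraries and 1 in each reporter-null library, and Ptprtos had 0 in all 5. A count of 0 allows up to 3 counts, or 0.133 to 0.163 CPM in a library, for counting error only. Ptprb, the receptor VE-PTP of endothelial cells, had 6 to 14 counts per library, and the endothelial marker Cdh5 stood at 0.0542 to 0.462 CPM. None of the tested members had passed the filter on low counts through libraries of 1 group alone.

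Genes were put in order of level per kilobase of the longest coding transcript in GENCODE M21, since the annotation behind the counts is not given in the sources used here. On this scale Ptprcap came first in both groups, at 633 CPM per kb in Treg and 318 CPM per kb in reporter-null cells, followed by Ptprc at 351 and 214 CPM per kb. In Treg cells Ptpn22 (147 CPM per kb), Ptp4a2 (132) and Ptpn7 (99.5) came next. In reporter-null cells the order of these was Ptpn7 (170.4), Ptpn22 (158) and Ptp4a2 (135). Ptprv had no coding transcript in those models and was left out.

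Summed over the 43 genes, the level was 5149 and 5525 CPM in Treg cells, against 4819, 4415 and 4962 CPM in reporter-null cells. Ptprc alone gave 32.6% and 34.1% of this sum, which is not per length, in the Treg libraries and 21.6% to 24.6% in the reporter-null libraries. Without Ptprc the sums were 3469 and 3641 CPM against 3733, 3462 and 3741 CPM, and the groups overlapped. Without Ptprc and Ptprcap they were 2746 and 2996 CPM against 3359, 3178 and 3367 CPM, higher in every reporter-null library. The transmembrane phosphatases other than CD45 summed to 375 and 464 CPM in the Treg libraries and to 618, 623 and 515 CPM in reporter-null cells, with no overlap. The cytoplasmic and prenylated enzymes summed to 2371 and 2532 CPM against 2741, 2555 and 2852 CPM, again with no overlap. Ptpn7, which was not called, gave 269 and 379.8 CPM of the Treg sums and 638, 456 and 572 CPM of the reporter-null sums. With Ptpn7 taken out the groups overlap. No test was made of these sums.

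Phosphatases of related build that do not carry these symbols were mostly not called. Of 34 tested genes from a list of phosphatases outside the family, most of them cysteine-based, which holds Acp1, the Cdc25 genes, the myotubularins and the Eya genes, 1 was lower and none was higher. The median log2 fold change was -0.15, and 7 of the 34 had an unadjusted p under 0.05, 4 of them lower. Over all genes 4.72% were called lower and 22.6% had an unadjusted p under 0.05. The gene called was Eya3, whose product is a transcription cofactor with a tyrosine phosphatase site built on aspartate, at 76.3 and 68.6 CPM in Treg cells, against 30.5, 34.2 and 36.6 CPM in reporter-null cells (-1.10, SE 0.128, edgeR adjusted p = 0.00391). Whether the share of called genes differs between the lists was not tested.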

How the data were processed

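The deposited table, made by the authors, holds unnormalised whole-number counts per gene symbol for 5 libraries. Per the labels' protocols, RNA was extracted with TRIzol, polyadenylated RNA was amplified by the SMART-Seq v4 kit, and the libraries were read in pairs on an Illumina HiSeq. The submitters' processing notes name DESeq without a version. No aligner, build, annotation or strand setting is named in the sources used here. Groups came from sample titles.

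Of 24421 rows 4 had no symbol (0.0034% to 0.00492% of counts) and were left out. In R 4.3.3, filterByExpr (minimum count 10, minimum total 15) kept 14164 genes. These were compared by TMM factors and the robust quasi-likelihood test of edgeR 4.0.16, Benjamini-Hochberg adjusted over all of them, at a threshold of 0.05. Each SE is the log2 fold change over the square root of the F statistic, without its sign. Depth was 17670420 to 22395169 counts per library, and reads without molecular identifiers are not molecules. No replicate pair agreed within sampling noise (chi-square per degree of freedom 21.3 to 91.2). The steps were tested on simulated data.

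Every member is accounted for. Values in every library are given for members called and for a fixed set that holds the best known members of T cells, and the called genes of each pathway list are named, up to 4, apart from an item that is not reported here. Values per library of Ptpra, Ptpre, Ptprf, Ptprk, Ptprh, Ptprd and Eya3, and the naming of Jak2, Tyk2 and single cell type markers, were chosen after they were seen. The members and lists were chosen with earlier results of these data known. Alternatives were other factors, DESeq2 1.42.0, limma-voom (limma 3.58.1), other filters, a stricter threshold, left-out libraries and replicate blocks.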

Additional observations from a re-analysis of the deposited data

How the results depend on the processing

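The depth limits genes under about 1 CPM, and the number of Treg libraries limits every test. Directions of the 8 called genes held in all 112 alternatives run on them, and 28 of these lost the call. The count over the whole table, 1245 genes (577 higher, 668 lower), was 2323 (1200 and 1123) with DESeq2 and 489 (208 and 281) at a threshold of 0.01. Leaving out a library gave 341 to 2035 genes (146 to 926 higher, 192 to 1109 lower). With Treg replicate 1 and reporter-null replicate 2 both left out, chosen after seeing the data, it was 2152 (944 and 1208). The members, 8 in all (3 higher, 5 lower), had 5 higher with DESeq2 and 1 higher with no filter, and at the threshold of 0.01 there were 3 in all, 0 higher and 3 lower. Leaving out a library gave 2 to 11 members (0 to 6 higher, 1 to 5 lower), and with both left out 5 were higher. A stricter threshold can only drop calls, and the cause of the other shifts was not tested. The mean summed level without Ptprc was 3555 CPM for Treg and 3646 CPM for reporter-null libraries, against 5337 and 4732 CPM.

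Titles and descriptions number the libraries differently, and neither is said to mark a shared animal. The replicate block by title number left 24 genes (12 higher, 12 lower) and 0 members in edgeR (0 higher, 0 lower), with 10 members at an unadjusted p under 0.05. Deviations from the group means correlated at -0.511 and -0.602 in pairs of the same title number. In pairs of the same description number they correlated at 0.602 and 0.481, and that replicate block gave 10 members, 5 of them higher. With 2 Treg libraries the Treg deviations are equal and opposite, so each reporter-null library gives 1 value with both signs. The -0.602 and the 0.602 both come from reporter-null replicate 2. The signs therefore cannot show which numbering, if either, marks a shared animal. The description numbers also pair the 2 libraries of high epithelial markers.

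Signs turned in 11 members, none of them called. With libraries left out the log2 fold change ran from -0.020 to 0.085 for Ptp4a2, -0.00015 to 0.47 for Ptpn11, -0.15 to 0.30 for Ptpn23, -0.25 to 0.33 for Ptpn3, -1.87 to 1.22 for Ptprf, -1.15 to 0.49 for Ptprg, -0.36 to 1.95 for Ptprk, -0.45 to 0.51 for Ptprm, -0.72 to 1.74 for Ptprn, -1.18 to 2.29 for Ptprr and -0.55 to 0.81 for Ptprt. Limma-voom gave -0.62 for Ptprf, 0.027 for Ptprm and 0.37 for Ptprr. Ptpn3 was at -0.0098 with upper quartile factors, -0.0038 with the CPM filter and -0.026 with the block by title, which gave 0.10 for Ptprr. The block by description gave -0.21 for Ptprf, 0.19 for Ptprg, 0.26 for Ptprm and 0.62 for Ptprr.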
